A study of Mus musculus with 7 samples.

Results

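ATP-binding cassette (ABC) transporters were taken as the genes whose symbol begins with Abc, a subfamily letter from a to g and a digit, with 1 entry per Entrez gene. The rule gave 39 of the 14641 genes in the table, all of which had a summed count above 1 and were tested among 14637 genes, and 37 of them are described here. Of these, subfamily A had 11 members, B 8, C 7, D 3, E 1, F 3 and G 4. The study asked how raising Nrf2, a transcription factor of antioxidant and detoxification genes, in heart muscle alters the cardiac transcriptome. Poly(A) RNA was sequenced from whole heart lysate of 4 non-transgenic mice (NTG, labelled replicates 1 to 4) and of 3 mice with a heart-specific Nrf2 transgene (mNrf2-TG, replicates 17 to 19), with 1 library per mouse. All 7 mice were male and C57BL/6J, and NTG mice were littermates without the transgene. The αMHC promoter, which is active in cardiomyocytes, drives the transgene, and the transgene encodes the full-length mouse protein. Ages are given as 6 to 7 months in the methods, 7 to 8 months in the description of the series and 6 months in the mNrf2-TG labels, while the NTG labels carry no age. A batch is not given for any library.

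ABC transporters bind and hydrolyse ATP in paired cassettes and use the energy to move lipids, drugs, conjugates, peptides, haem or iron-sulfur precursors across membranes. Subfamilies A and G mostly handle sterols and phospholipids, B holds P-glycoprotein and mitochondrial carriers, C holds the multidrug resistance proteins and the sulfonylurea receptors of ATP-sensitive potassium (KATP) channels, and D serves peroxisomes and lysosomes. E and F have cassettes without a membrane domain and act on ribosomes. Nrf2 binds the antioxidant response element (ARE), and Abcc1, Abcc2, Abcc3 and Abcg2 are textbook targets of it in liver and other tissues.

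The members that were called lay mostly side by side on chromosome 11, so the promoters of 3 of them are shown with the core letters of the ARE. RefSeq (GRCm38.p6) windows from 250 bases before to 50 bases after the annotated start were held for 28 of the 37 members, as 34 windows, and were searched on both strands for TGACNNNGC, where N is any base. The 3 windows lie on the minus strand at chr11:109995796-109996095 for Abca8b, chr11:110095888-110096187 for Abca8a and chr11:110168104-110168403 for Abca9, and capitals mark a core.
Abca8b: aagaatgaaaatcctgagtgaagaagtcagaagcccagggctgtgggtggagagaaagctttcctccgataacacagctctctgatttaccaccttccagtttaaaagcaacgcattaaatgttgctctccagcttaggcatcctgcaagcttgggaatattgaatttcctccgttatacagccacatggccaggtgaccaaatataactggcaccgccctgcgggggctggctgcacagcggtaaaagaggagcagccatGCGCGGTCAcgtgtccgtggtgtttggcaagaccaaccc
Abca8a: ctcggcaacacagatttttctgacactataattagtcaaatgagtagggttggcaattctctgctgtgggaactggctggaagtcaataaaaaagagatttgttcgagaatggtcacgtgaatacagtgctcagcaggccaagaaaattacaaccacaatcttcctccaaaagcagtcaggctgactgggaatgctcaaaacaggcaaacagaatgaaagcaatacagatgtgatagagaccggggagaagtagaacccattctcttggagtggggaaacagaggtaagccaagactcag
Abca9: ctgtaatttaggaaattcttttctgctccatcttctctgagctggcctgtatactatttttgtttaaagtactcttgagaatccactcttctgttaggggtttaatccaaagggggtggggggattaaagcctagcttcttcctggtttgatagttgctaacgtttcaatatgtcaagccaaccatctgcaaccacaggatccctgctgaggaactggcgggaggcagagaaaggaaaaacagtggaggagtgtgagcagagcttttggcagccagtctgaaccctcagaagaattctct
The Abca8b window held 1 core, read on the opposite strand and beginning 11 bases past the start, while the letters of the core were absent from the Abca8a and Abca9 windows. A core stood in 6 of the 34 member windows (17.6%), against 4071 of 32851 windows of all genes (12.4%). These 6 were the window of Abca8b, the window of Abcb1a and both windows each of Abcc4 and Abcc10. In 1 Abcc4 window the core was TGACTCTGC on the gene's strand. Of the 6 called members only Abca8b, Abca8a and Abca9 had a window, so Abca6, Abcc1 and Abcd4 were not searched. The AP-1 site TGACTCA, which a core can contain, was in none of the 34 member windows. A match describes the letters only, and looser letters, TGANNNNGC, were found in 41.3% of all windows.

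Reads on the listed genes numbered 6534684 to 8405857 per library, and the 37 members took 0.195% to 0.228% of them. Nfe2l2, the gene of Nrf2, ranged from 729 to 1392 counts over the NTG libraries, while those of mNrf2-TG ranged from 10912 to 12839 (Log2FC 3.36, SE 0.177, adjusted p = 2.96e-06), so every library went with its label. NTG replicate 3 stood apart from the other NTG libraries, with root-mean-square log2 distances of 0.632 to 0.663 to them against 0.489 to 0.553 among the others, and the between-group distances were 0.677 to 0.782. It was the highest NTG library for 17 of the 37 members, so results that turn on it are given without it too. Cardiomyocyte markers were abundant in all 7 libraries. At an adjusted p under 0.05, 4 of 6 fibroblast and 4 of 6 macrophage markers rose, while 2 of 6 cardiomyocyte, 2 of 6 endothelial, 1 of 5 pericyte and 1 of 4 mesothelial markers fell and 1 endothelial marker rose. None of the smooth muscle, adipocyte, red cell, Schwann or T cell markers was called. In RNA of whole tissue, fewer cells of a type and less RNA per cell cannot be told apart.

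Of the 37 members, 6 (16.2%) rose in mNrf2-TG hearts at an adjusted p under 0.05, all of them by less than 2-fold, and none fell. These were Abca6, Abca9, Abca8b, Abca8a, Abcc1 and Abcd4, that is 4 of 11 members of A, 1 of 7 of C, 1 of 3 of D and none of B, E, F or G. Among all 14637 genes tested 8.48% were called higher and 8.73% lower by edgeR's quasi-likelihood test with Benjamini-Hochberg adjustment. The lower count was 0 by DESeq2 and by limma-voom too, which called 6 and 7 members higher, against 7.74% and 8.82% of all genes. Without NTG replicate 3 the count was 9, with Abca2, Abca3 and Abcb6 added, against 10.1% of all genes called higher. It was 5 without mNrf2-TG replicate 18 and 5 without replicate 19, against 5.12% and 5.88% of all genes. At an unadjusted p under 0.05, 5 members were lower (Abca1, Abcb1a, Abcb1b, Abce1 and Abcg1), or 13.5% against 16.3% of all genes. In 9 members (24.3%, against 15.0% of all genes) every mNrf2-TG library was above every NTG library, and in 4 (10.8%, against 14.7%) every one was below. The median Log2FC of the members was 0.19, against 0.0012 over all genes tested, and 22 members were above 0 and 15 below. Without mNrf2-TG replicate 18 the median of the members was 0.064, and under the other alternatives it was 0.14 to 0.24. By subfamily the median was 0.24 for A, -0.13 for B, 0.25 for C, -0.02 for D, -0.01 for F and 0.27 for G. The single member of E was at -0.21. The median of G includes Abcg3 and Abcg4, with at most 4 and 2 counts in any library. Abcg1 and Abcg2, its other members, were at -0.50 and -0.20. The median of B includes Abcb11, with at most 5 counts. These counts and medians describe the members and are no test of them as a group.

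**Figure D1:**
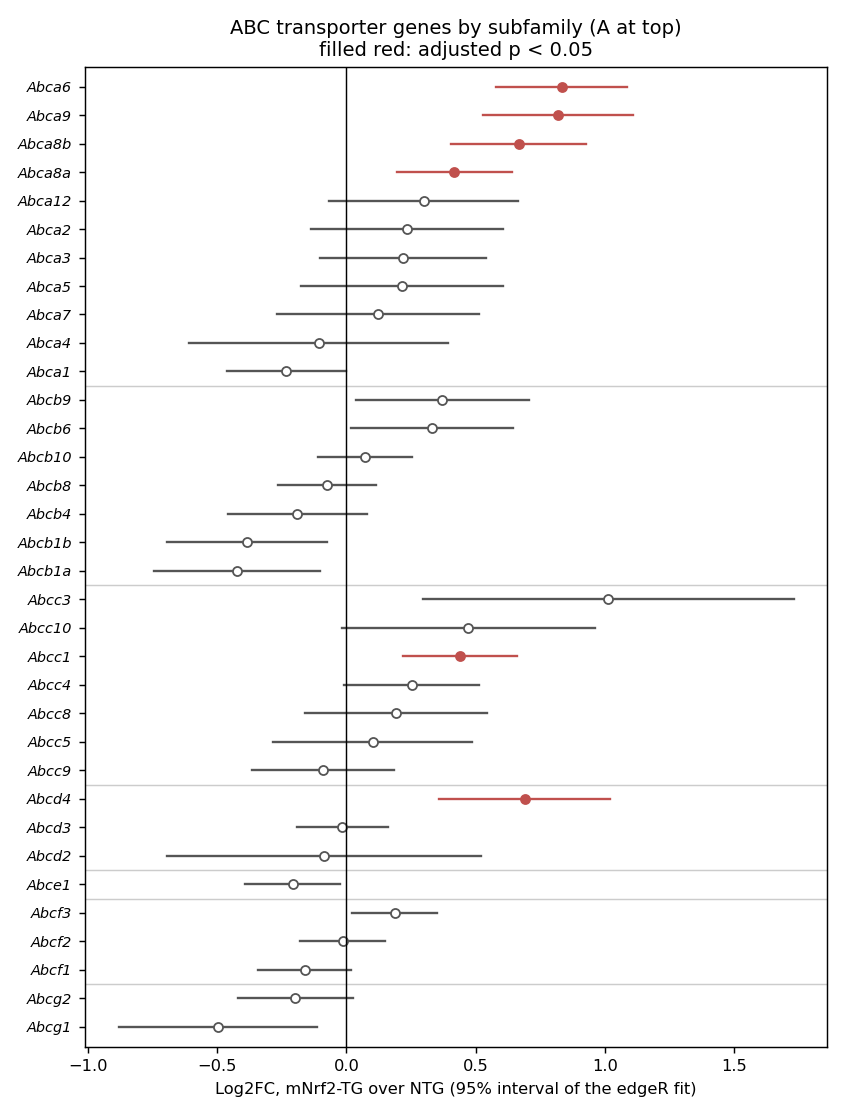
Log2FC of mNrf2-TG over NTG (x axis) for 34 members, grouped by subfamily on the y axis, with 95% intervals from the edgeR fit as lines and filled points for the 6 called members; Abcb11, Abcg3 and Abcg4, with at most 5 counts in every library, are left out. The called members lie between 0.42 and 0.83, and no interval of a called member reaches 0.

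Abca6, Abca8a, Abca8b and Abca9, members of a group of A transporters that lie head to tail and whose substrates are poorly known, rose together in mNrf2-TG hearts. With Abca5 they occupy chr11:109932190-110337716, all on the minus strand. Positions of genes are those of GENCODE M21 on GRCm38. Values are counts scaled by TMM factors to the mean library size (normalized counts). Abca6 (Entrez ID 76184, chr11:110176820-110251776, minus strand) had 86.2, 92.7, 97.98 and 77.7 normalized counts in NTG replicates 1 to 4 and 158, 167 and 149.8 in mNrf2-TG replicates 17 to 19. The groups did not overlap, and the mean went from 88.6 ± 8.75 (SD, n = 4) to 158 ± 8.37 (SD, n = 3), a 1.78-fold rise (Log2FC 0.83, SE 0.114, adjusted p = 0.00154). Abca9 (Entrez ID 217262, chr11:110100749-110168196, minus strand) had 233, 212, 264 and 221 in NTG and 382, 499.6 and 349.5 in mNrf2-TG. Replicate 18 was the highest of all, and the lowest mNrf2-TG library was above the highest NTG library, giving a 1.77-fold rise (Log2FC 0.82, SE 0.13, adjusted p = 0.00342).

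Abca8b (Entrez ID 27404, chr11:109932190-109995845, minus strand), whose promoter carried the core shown in capitals, had 195, 173, 219.7 and 164 normalized counts in NTG and 322, 304 and 269 in mNrf2-TG. Its groups were separate as well, with means of 188 ± 24.8 (SD, n = 4) and 298 ± 27.1 (SD, n = 3) (Log2FC 0.67, SE 0.116, adjusted p = 0.00526). Abca8a (Entrez ID 217258, chr11:110025634-110095978, minus strand), the neighbour of Abca8b and the most abundant A member for its length, had 679, 686, 839.5 and 793 in NTG and 919, 1112 and 973 in mNrf2-TG. The groups did not overlap, but the 1.34-fold rise (Log2FC 0.42, SE 0.0994, adjusted p = 0.0187) was not called without mNrf2-TG replicate 18 (adjusted p = 0.0743). Few 50-base stretches of exon of Abca8a and Abca8b occur in other genes (1.64% and 1.42%), and fewer still of Abca6 and Abca9 (0.243% and 0.162%). In each pair the other gene shares the most of them. An antisense gene, Gm11697, overlaps 241 exonic bases of Abca8b, and reads of the pair cannot be told apart if the strand was not used in counting. The same limit applies to other members with genes on the opposite strand, most of all Abca3 (914 exonic bases), Abcb1a (553) and Abcb10 (444).

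Abca5 (Entrez ID 217265, chr11:110269369-110337716, minus strand), a lysosomal transporter linked to cholesterol handling, stands at the end of the same row and was not called. Its values were 119.5, 105, 155 and 112 in NTG and 112, 173 and 141 in mNrf2-TG, which overlap (Log2FC 0.21, 95% interval -0.18 to 0.60, adjusted p = 0.437). Beyond Abca5, Map2k6, a kinase of the p38 pathway at chr11:110399122-110525522 on the plus strand, fell from 55.3 ± 10.04 (SD, n = 4) to 24.6 ± 7.11 (SD, n = 3) (Log2FC -1.16, SE 0.237, adjusted p = 0.00996). On the other side, Fam20a (Log2FC 0.30, adjusted p = 0.417) and Prkar1a, a regulatory subunit of protein kinase A (Log2FC 0.26, adjusted p = 0.0758), were not called. The rise was measured in 4 adjacent genes, while the nearest gene measured on either side was not called higher.

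**Figure D2:**
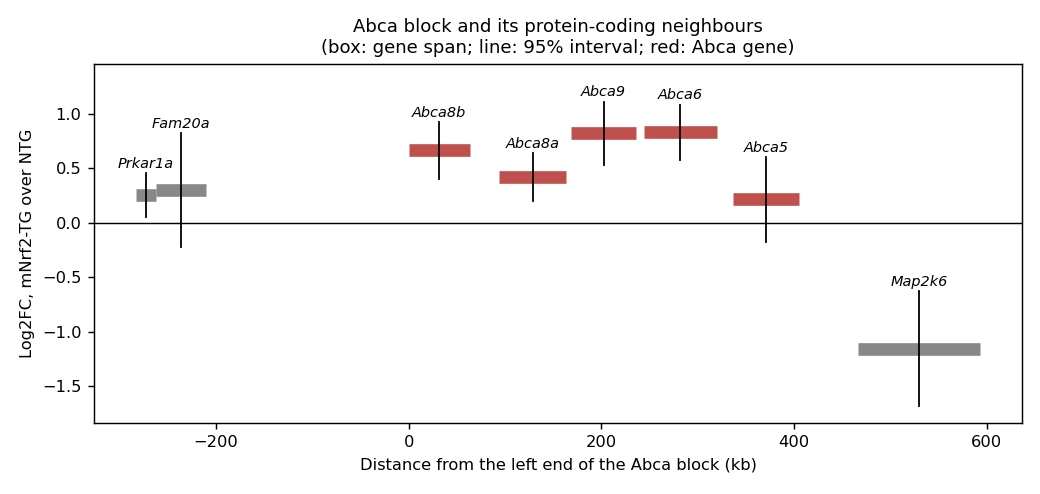
Log2FC of mNrf2-TG over NTG with 95% intervals (y axis) for the Abca genes of chromosome 11 and their measured neighbours, with each gene drawn as a bar over its distance in kilobases from the left end of the Abca block (x axis), members in red and others in grey. Abca8b, Abca8a, Abca9 and Abca6 lie between 0.42 and 0.83, Abca5 is at 0.21 with an interval through 0, and Map2k6 is at -1.16.

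The 4 called genes summed to 1194, 1163, 1421 and 1256 normalized counts in NTG and to 1781, 2082 and 1741 in mNrf2-TG. The 6 fibroblast markers, none of them at 0, summed to 7746, 7645, 9946 and 8341 in NTG and 10744, 11293 and 11089 in mNrf2-TG, and Col1a1, Col1a2, Tcf21 and Lum rose while Dcn and Pdgfra were not called. The 6 macrophage markers summed to 1027, 1089, 1466 and 1028 in NTG and to 1854, 2476 and 1769 in mNrf2-TG, with Adgre1, Csf1r, C1qa and C1qb higher. For all 3 sums NTG replicate 3 was the highest NTG library and mNrf2-TG replicate 18 the highest of all. The sums are weighted to abundant genes such as Abca8a and Dcn, and single genes differed. Among mNrf2-TG libraries, Abca6, Abca8a, Abca9, Col1a2, Dcn, Pdgfra and the 6 macrophage markers were highest in replicate 18. Abca8b and Lum were highest in replicate 17, and Col1a1 and Tcf21 in replicate 19. The part of fibroblasts and macrophages in the rise of the Abca genes was not tested.

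**Figure D3:**
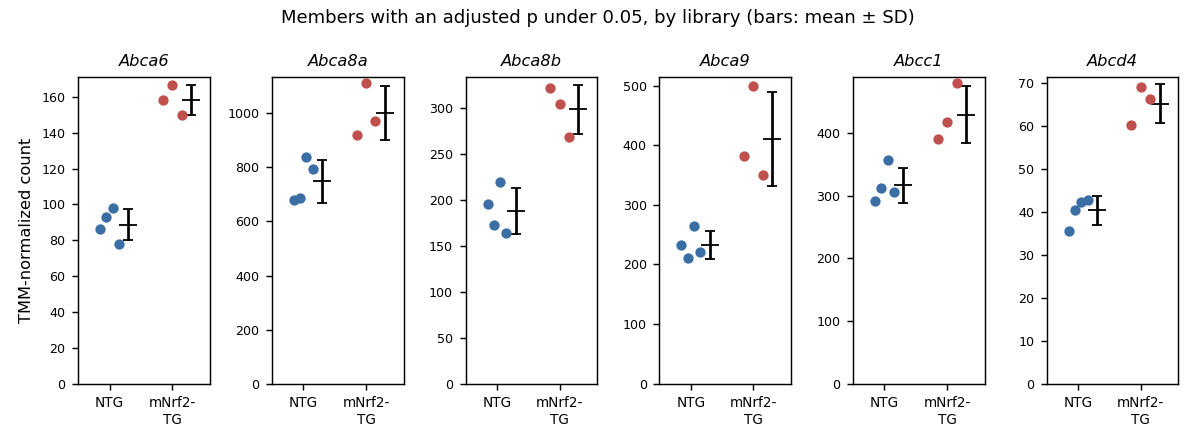
Normalized counts (y axes, starting at 0) of the 6 called members, 1 panel per gene, with blue points for the 4 NTG and red points for the 3 mNrf2-TG libraries and the mean ± SD beside them. In every panel the mNrf2-TG points lie above all NTG points, with 60.3 at the lowest against 42.8 at the highest in Abcd4, and 919 against 839.5 in Abca8a.

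The other members of subfamily A were not called. Abca1, which loads cholesterol and phospholipid onto apolipoprotein A-I, had 346, 463, 375 and 412 normalized counts in NTG and 344, 349 and 328 in mNrf2-TG, where the values were close together and reached into the NTG range (Log2FC -0.23, unadjusted p = 0.048, adjusted p = 0.151). Abca7, a phospholipid transporter of phagocytes, had 93.1, 112, 127 and 75.7 in NTG and 102, 126 and 104 in mNrf2-TG, with overlap (Log2FC 0.12, 95% interval -0.27 to 0.51). Abca2, of endosomes and lysosomes, had 545, 518, 877 and 579.6 in NTG and 733, 809 and 682 in mNrf2-TG. Only NTG replicate 3 was above the mNrf2-TG libraries, and Abca2 was called higher without it (adjusted p = 0.00622, against 0.364 with it). Abca3, known for surfactant secretion in the lung, had the same pattern, with 166 in NTG replicate 3 and 114 to 120.5 in the other NTG libraries against 139.9 to 163 in mNrf2-TG (adjusted p = 0.332, and 0.0461 without that library). Abca4 (Log2FC -0.11, adjusted p = 0.785) and Abca12 (Log2FC 0.30, adjusted p = 0.24), known from retina and skin, overlapped between the groups.

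In subfamily B none of 8 members was called. Abcb1a (Entrez ID 18671, chr5:8660077-8748575, plus strand) and Abcb1b encode the mouse P-glycoproteins, drug efflux pumps of the endothelium and other barriers, and both had lower means in mNrf2-TG without passing the test. Abcb1a had 213, 185, 213 and 262 normalized counts in NTG and 136, 164 and 187 in mNrf2-TG. The groups overlapped, and the Log2FC was -0.42 (95% interval -0.74 to -0.10, unadjusted p = 0.0146, adjusted p = 0.0697). Abcb1b had 89.7, 86.4, 108 and 102 in NTG and 64.6, 74.9 and 81.7 in mNrf2-TG. All 3 mNrf2-TG libraries were below all NTG libraries, at a Log2FC of -0.38 (adjusted p = 0.0853). Of their 50-base stretches, 17.6% and 11.6% occur in other genes, and for each the other paralog shares the most. Their counts are therefore uncertain where reads could be split. The 6 endothelial markers summed to 6189 to 6755 in NTG, against 5773 to 6122 in mNrf2-TG, a sum weighted to abundant genes such as Pecam1. Single markers differed. Pecam1 and Cdh5 fell (Log2FC -0.47 and -0.37) and Kdr rose (Log2FC 0.39). Tie1, Emcn and Egfl7 were not called (Log2FC 0.02, -0.46 and 0.04). The part of endothelial cells in the values of Abcb1a and Abcb1b was not tested.

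Abcb8 and Abcb10, which sit in the inner mitochondrial membrane, were not called. Abcb8 had 735, 613, 658 and 647 in NTG and 609, 594 and 683 in mNrf2-TG, and Abcb10 had 537, 461, 515 and 522 in NTG and 571, 501 and 530.2 in mNrf2-TG. Both overlapped between the groups, with Log2FC of -0.08 (95% interval -0.27 to 0.11) and 0.07 (95% interval -0.11 to 0.25). Abcb6, a porphyrin transporter, had 177, 158, 249 and 204 in NTG and 248, 249 and 245 in mNrf2-TG. The mNrf2-TG values were nearly identical and NTG replicate 3 reached into them (Log2FC 0.33, adjusted p = 0.135), and without that library Abcb6 was called higher (adjusted p = 0.0157). Of the 50-base stretches of Abcb6, 50.0% occur in other genes. Gm29253, which overlaps Abcb6 on the same strand, shares the most of them, so the Abcb6 count is uncertain. Abcb9, a lysosomal peptide transporter (Log2FC 0.37, adjusted p = 0.117), and Abcb4, the phosphatidylcholine carrier of bile (Log2FC -0.19, adjusted p = 0.31), were not called. Abcb11, the bile salt export pump of liver, had at most 5 counts in any library.

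Abcc1, the multidrug resistance protein that exports glutathione conjugates and oxidized glutathione, was the called member of subfamily C. Abcc1 (Entrez ID 17250, chr16:14361558-14475737, plus strand) had 292, 311, 357 and 306 normalized counts in NTG and 391, 418 and 479 in mNrf2-TG. Every mNrf2-TG library was above every NTG library, and the mean went from 317 ± 28.1 (SD, n = 4) to 429 ± 45.5 (SD, n = 3), a 1.36-fold rise (Log2FC 0.44, SE 0.0992, adjusted p = 0.015). Without mNrf2-TG replicate 19, the highest library, it was not called (adjusted p = 0.0566). Abcc3 (Entrez ID 76408, chr11:94343295-94392997, minus strand), which exports glucuronides and bile salts, had few reads, with 14, 14, 13 and 6 counts in NTG and 18, 28 and 28 in mNrf2-TG. The groups did not overlap, and the 2.02-fold difference in means had an adjusted p just over the threshold (Log2FC 1.01, SE 0.322, adjusted p = 0.0568, 95% interval 0.30 to 1.73). It was called by limma-voom and after both stricter filters on low counts (lowest adjusted p = 0.0397), but not by DESeq2. Abcc4, an exporter of cyclic nucleotides and prostanoids, had 191, 161, 185 and 143 in NTG and 209.8, 211 and 186 in mNrf2-TG, which overlap (Log2FC 0.25, adjusted p = 0.168).

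Abcc5, also a carrier of cyclic nucleotides, had 209, 245, 149 and 157 in NTG and 221, 215 and 178 in mNrf2-TG, which overlap (Log2FC 0.10, 95% interval -0.28 to 0.49). Abcc10 was low, at 21.8, 19.8, 28.9 and 31.9 in NTG and 37.7, 34.5 and 34.5 in mNrf2-TG. Its groups did not overlap, but the test did not call it (Log2FC 0.47, adjusted p = 0.169). Abcc2 was not analysed here.

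The sulfonylurea receptors, which regulate KATP channels that couple membrane voltage to ATP, were the most highly expressed part of subfamily C. Abcc9 (SUR2) had 4919, 5339, 6079.9 and 4254 normalized counts in NTG and 4248, 5508 and 4756 in mNrf2-TG. The ranges overlapped widely, with means of 5148 ± 765 (SD, n = 4) and 4837 ± 634 (SD, n = 3) (Log2FC -0.09, 95% interval -0.37 to 0.19, adjusted p = 0.666). Abcc8 (SUR1) had 278, 314, 407 and 284 in NTG and 311, 446 and 342 in mNrf2-TG, also overlapping (Log2FC 0.19, 95% interval -0.16 to 0.54). The pore subunits were not called either. Kcnj11 (Kir6.2) had 1492 ± 96.4 (SD, n = 4) in NTG and 1399 ± 83.05 (SD, n = 3) in mNrf2-TG (Log2FC -0.09, 95% interval -0.26 to 0.08), and Kcnj8 (Kir6.1) had a Log2FC of -0.12 (95% interval -0.37 to 0.13). The interval of Abcc9 leaves room for moderate differences in either direction, so equal expression was not shown.

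Of the D members described, Abcd4 rose, and Abcd2 and Abcd3 were not called. Abcd4 (Entrez ID 19300, chr12:84601464-84617413, minus strand), which takes part in cobalamin export from lysosomes, had 35.6, 40.5, 42.3 and 42.8 in NTG and 60.3, 68.98 and 66.3 in mNrf2-TG. It was the least expressed of the called members, with 31 to 45 reads per NTG library, and the groups were clearly separate (1.61-fold, Log2FC 0.69, SE 0.148, adjusted p = 0.0122).

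Abcd3, the abundant peroxisomal membrane protein PMP70, had 1353, 1450.2, 1256 and 1361 in NTG and 1406, 1219 and 1397 in mNrf2-TG, with a Log2FC of -0.02 and a narrow 95% interval of -0.19 to 0.16. Abcd2, which carries very long chain fatty acyl-CoA into peroxisomes, had 66.7, 72.9, 145 and 82.7 in NTG and 93.6, 102 and 64.5 in mNrf2-TG. Its highest value was in NTG replicate 3, and the interval of -0.69 to 0.52 was among the widest of the members with more than a few counts.

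Subfamilies E and F hold no membrane transporters, and none of their members was called. Abce1, which splits ribosomes after termination, had 830, 790.3, 900.4 and 838 normalized counts in NTG and 793, 729 and 658 in mNrf2-TG. Replicates 18 and 19 of mNrf2-TG were below all NTG libraries and replicate 17 was not (Log2FC -0.21, SE 0.0829, unadjusted p = 0.0307, adjusted p = 0.113). Abcf1, which acts with eIF2 in translation initiation, had 948, 1070.3, 915 and 921 in NTG and 805, 907 and 873 in mNrf2-TG, without overlap (Log2FC -0.16, adjusted p = 0.198). Abcf3 had 501, 493, 461 and 439 in NTG and 538, 548 and 532 in mNrf2-TG, also without overlap but higher (Log2FC 0.19, adjusted p = 0.109). For Abcf2 the groups overlapped, and the 95% interval was -0.18 to 0.15.

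In subfamily G, Abcg1 and Abcg2 had lower values in every mNrf2-TG library than in any NTG library, and neither passed the test. Abcg1, which passes cholesterol to high-density lipoprotein, had 60.9, 57.6, 52.6 and 46.8 in NTG and 44.1, 34.5 and 37.2 in mNrf2-TG (Log2FC -0.50, 95% interval -0.88 to -0.11, adjusted p = 0.0743). Abcg2, the breast cancer resistance protein and an exporter of drugs and urate, had 231, 234, 282 and 232 in NTG and 225, 202 and 213 in mNrf2-TG. The gap between its groups was small, and NTG replicate 3 was far above the rest (Log2FC -0.20, adjusted p = 0.204). Abcg3 and Abcg4 had at most 4 and 2 counts in any library, and no fold change is given for them. Of the textbook targets of Nrf2 named at the start, Abcc1 was called higher, Abcc3 had a higher mean that fell short of the threshold and Abcg2 had a lower mean.

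Levels were compared between members as reads per kilobase of exon scaled to the TMM library size (RPKM, the length-scaled level). Abcc9 was the highest in NTG at 81.7 ± 12.1 (SD, n = 4), at the percentile 96.7 of all genes, and all 4 of its values were above those of every other member. Abcf2 at 34.5 ± 1.37 followed and did not overlap the next in order. Abcf1 at 29.03 ± 2.19 and Abcd3 at 27.3 ± 1.597 overlapped each other, as did the run of Abcb8, Abce1, Abcf3, Abca8a and Abcb10 from 18.6 to 15.7, each with its neighbour. Abca2 at 10.02 ± 2.65 overlapped neither the run above nor Abcb1a, the next below, from which came a long series of overlapping neighbours. The highest member was Abca8a in A, Abcb8 in B, Abcc9 in C, Abcd3 in D and Abcf2 in F, and Abcg2 at 3.99 ± 0.401 led G. With the longest transcript as the length Abcd3 moved to 51.6 and Abcf1 to 40.5, both above Abcf2 at 34.5. Abcb8 and Abce1 moved to 28.7 and 29.4. The order below Abcc9, and whether Abcf2 or Abcf1 led F, thus depends on the length used. Abcc3 at 0.28 ± 0.1 was the lowest member apart from Abcb11, Abcg3 and Abcg4.

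Summed over the members of a subfamily, the length-scaled level of A was 43.2 to 55.2 in NTG, against 57.2 to 67.1 in mNrf2-TG, without overlap. That of G was 4.81 to 5.58 in NTG, against 4.09 to 4.52 in mNrf2-TG, also without overlap. All 37 members together came to 313 to 357 in NTG, against 325 to 356 in mNrf2-TG, which overlap. The higher sum of A was not seen in the total, of which Abcc9 alone took 67.5 to 96.5 in NTG.

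**Figure D4:**
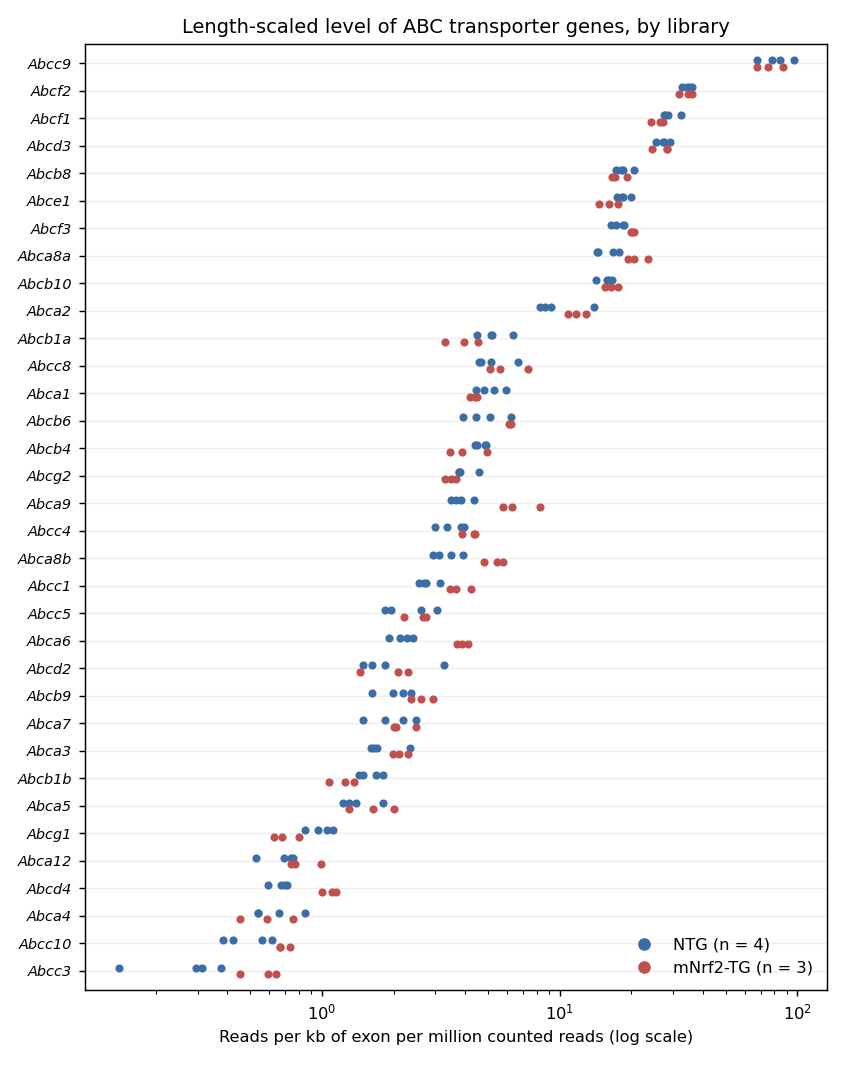
Length-scaled level (RPKM, x axis, log scale) of 34 members in order of their NTG mean (y axis), with a blue point for each NTG and a red point for each mNrf2-TG library; Abcb11, Abcg3 and Abcg4 are left out. Abcc9 stands alone at the top, between 67.5 and 96.5 in NTG, and Abcc3 lies near 0.28.

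Of 32 listed genes that work with ABC transporters 29 were measured, of which 5 rose and 2 fell, and their median Log2FC was 0.05. Over all genes tested, 8.48% were called higher and 8.73% lower. In glutathione synthesis and recycling, which supplies the substrate of Abcc1, 3 of 4 rose. Gclm, the modifier subunit of glutamate-cysteine ligase, had 199, 194, 141 and 126 in NTG and 1121, 1130.3 and 929.7 in mNrf2-TG (Log2FC 2.68, SE 0.153, adjusted p = 5.41e-06). Gsr and Gss, glutathione reductase and synthetase, rose as well (Log2FC 1.58, adjusted p = 5.09e-05, and Log2FC 0.79, adjusted p = 0.00162), while Gclc, the catalytic subunit, had a Log2FC of -0.02 (95% interval -0.34 to 0.31). In iron-sulfur and haem synthesis, 2 of 6 rose, namely the cysteine desulfurase Nfs1 (Log2FC 0.44, SE 0.08, adjusted p = 0.00611) and the scaffold Iscu (Log2FC 0.42, SE 0.101, adjusted p = 0.0187). Iscu was not called without NTG replicate 1 or without mNrf2-TG replicate 17 (highest adjusted p = 0.0517).

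Among partners of Abce1 and the Abcf proteins, 2 of 5 fell. The termination factor Etf1 went from 1444 ± 31.7 (SD, n = 4) to 1169 ± 57.7 (SD, n = 3) (Log2FC -0.31, adjusted p = 0.0118). The eIF2 subunit Eif2s1 went from 519 ± 25.5 (SD, n = 4) to 418 ± 16.3 (SD, n = 3) (Log2FC -0.31, adjusted p = 0.0183). Pelo, Hbs1l and Gcn1 were not called (Log2FC 0.44, -0.16 and 0.05). For Pelo every mNrf2-TG library was above every NTG library (adjusted p = 0.0831). Etf1 was not called without mNrf2-TG replicate 19 (adjusted p = 0.052), and Eif2s1 was not called without NTG replicate 2, mNrf2-TG replicate 18 or mNrf2-TG replicate 19 (highest adjusted p = 0.0715). None of the 5 nuclear receptors listed was called, including the liver X receptors Nr1h2 (Log2FC -0.03, 95% interval -0.20 to 0.15) and Nr1h3 (Log2FC -0.11, 95% interval -0.44 to 0.22), which act on Abca1 and Abcg1. Tap1, a subfamily B peptide transporter under another symbol, had 72.4, 45.01, 52.6 and 49.8 in NTG and 59.2, 416 and 49.9 in mNrf2-TG. Replicate 18 alone was high, and its partner Tap2 had 149, 289.7 and 126 in mNrf2-TG and 151 to 180.5 in NTG. Neither was called (adjusted p = 0.105 and 0.649), and without replicate 18 the Log2FC of Tap1 was -0.0054.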

How the data were processed

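Per the labels and the methods, RNA of 7 hearts was made into stranded poly(A) libraries, 1 per mouse, and the authors aligned single reads with Novoalign and counted them per gene. The submitters' processing notes give Novoalign 2.08.01 and DESeq2 1.32.0. The methods name hg19 and mm10 (GRCm38), and the counting program and its use of the strand are not given in the sources used here. The authors deposited counts without normalization, which were the values used. The authors' comparison table served for symbols and Entrez IDs; its fold changes and p-values, and a signal column that the authors made as the mean of counts divided by size factors, were not used, nor were the rlog values. No column of another series was present.

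Groups came from the genotype labels. Genes with a summed count above 1 (14637 of 14641) entered 1 fit of group alone in edgeR 4.0.16, under R 4.3.3, on TMM-scaled libraries. The quasi-likelihood test was used, with Benjamini-Hochberg adjustment across these genes. The SE was taken from the Log2FC and the F statistic (size of Log2FC over root F). P-values set the difference between groups against the spread between mice within a group, which the test estimates with information from all genes. The totals of 6534684 to 8405857 counts limit members with few reads, and such limits cover counting error only. Positions and exon lengths are from GENCODE M21 (GRCm38), promoters from RefSeq (GRCm38.p6). 2 of the 39 members are not reported here and are left out of every count of members, though they stayed in the fit. The members, partner and marker lists and tests were chosen with earlier results of these data known.

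Named were members with an adjusted p under 0.05, a list of well-known transporters, the highest member per subfamily, called partners, KATP pores, liver X receptors and Tap1 and Tap2. The remaining members, Gclc, Pelo, Hbs1l, Gcn1 and the chromosome 11 neighbours were named after their values were seen. Alternatives were DESeq2 1.42.0, limma-voom (limma 3.58.1), DESeq2 size factors, the library total alone, filterByExpr, a minimum of 10 counts throughout either group, no filter, all deposited entries, the longest transcript as length, looser ARE letters and leaving out each library in turn. Python 3.11.15 was used for tables and plots.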

Additional observations from a re-analysis of the deposited data

Results flagged for a closer look

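In 3 of the 37 members the highest NTG library lay far from the other 3. The lowest library was searched too, and chance alone flags 1 or the other end in about 1 group of 20. Abca3 had 166.05 normalized counts in NTG replicate 3 and 113.81 to 120.5 in the others. Abcg2 had 281.56 in the same library and 231.06 to 234.04 in the others. Abcg4 had 0.99587 in NTG replicate 4, which is 1 read, and 0 in the others, so that any read at all would have been flagged.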

How the results depend on the processing

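Under the 15 alternatives 5 to 9 members were called higher, against 6 in the main analysis, and 0 lower. The share of all genes called higher ranged from 4.81% to 11.2% under them. Abca6, Abca8b, Abca9 and Abcd4 were called under every one. Without NTG replicate 3 there were 9, with Abca2, Abca3 and Abcb6 added. No called member changed sign under any of them. The sign of 4 members that were not called did change, with a Log2FC of -0.31 to 0.064 for Abca4, -0.23 to 0.22 for Abcd2, -0.051 to 0.048 for Abcd3 and -0.057 to 0.037 for Abcf2. Abcd3 and Abcf2, the medians of D and F, were above 0 with the library total alone too. Among the partner genes 4 to 7 were called higher and 0 to 2 lower when 1 library was left out, against 5 and 2 in the main analysis. In those fits 4.81% to 10.1% of all genes were called higher and 4.57% to 10.1% lower. The library total alone as the scale moved the median Log2FC of all genes to 0.031 and gave 1383 genes higher and 1034 lower, against 1241 and 1278. Members with few counts (Abcc3, Abcc10, Abcd4) and the 3 at or below 5 counts are limited by depth. No paired analysis was possible because the labels do not say which mice share a litter.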
